A study of Mus musculus with 6 samples.

Results

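The proteasome genes of mouse fetal liver were followed in RNA of 3 KO and 3 WT libraries. A gene was taken where the deposited table calls it protein coding and names it Psma to Psmg followed by a digit. This gave 50 of 26014 genes. Of these, 49 encode subunits, assembly chaperones, activators or an inhibitor of the proteasome. The other one, Psmc3ip, is matched by its name alone and encodes a cofactor of meiotic recombination.

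The KO libraries came from livers of untreated embryos at embryonic day 14.5 with a knockout of the 3′ UTR of Gata1, and the WT libraries from untreated wild-type embryos of the same day. The comparison was made to identify what differs in red cell formation of the fetus. The labels name the cell type as embryonic hepatocyte and mention no sort, and the sources used here do not state the mouse strain, the extent of the deletion or any pooling of embryos. No label ties a library to an embryo of its own, so the p-values reflect only how far these samples lie apart, possibly for technical reasons.

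The proteasome is the protease that degrades proteins tagged with ubiquitin. Its barrel, the 20S core, has outer rings of alpha subunits and inner rings of beta subunits, and the active sites lie on 3 kinds of beta subunit. The 19S regulatory particle caps the barrel: its base holds a ring of ATPases that unfold the substrate, and its lid removes the ubiquitin. Other activators, the PA28 proteins and PA200, can take the place of the 19S particle. Cells of the immune system and cells exposed to interferon exchange the 3 constitutive active subunits for immune ones. Red cell precursors rely on ubiquitin and the proteasome to remodel their proteins as they mature.

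Values are given as FPKM, a count of fragments divided by exon length and by the depth of the library, and so are levels per length. Exon lengths merged over all transcripts ran from 555 to 8382 bases among the 50 genes and include rarely used exons, so levels of different genes compare roughly. Fold changes are KO over WT on the scale log2(FPKM + 1), which understates the change of low genes, and come from limma over 11142 genes with a mean of at least 1 FPKM. A gene was called where its Benjamini-Hochberg adjusted p was under 0.05. Depth was 15620000 to 16152300 fragments in KO and 14811600 to 16225000 in WT, so that 3 fragments on 1 kb equal 0.185 to 0.203 FPKM. This covers counting error only.

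Gata1 itself, the transcription factor of red cells and megakaryocytes, had 67.2, 67.7 and 68.2 FPKM in KO, against 142.9, 141.8 and 165.8 FPKM in WT. The KO mean was 45.1% of the WT mean (log2 fold change -1.13, SE 0.069, limma adjusted p = 0.000638). Fragments of a deleted UTR are missing from this value. Globin genes took 22.4% to 24.85% of the summed FPKM in KO and 26.55% to 29.6% in WT, and Hbb-bs, an adult beta globin, had 35956 to 38179 FPKM in KO and 47463 to 54348 FPKM in WT. Alb, the albumin gene of hepatocytes, had 392.9 to 523.1 FPKM in KO and 148.6 to 963.7 FPKM in WT. The 10 hepatocyte markers were above 0 in every library and summed to 1058 to 1450.5 FPKM in KO and 409.6 to 2406 FPKM in WT, far below the globins. WT-1 stood apart in that a 57-base microRNA gene, Gm23935, took 13.5% of its FPKM sum, against 0.520% to 1.53% in the other 5 libraries. FPKM divides by the short length, and in fragments this gene held 56235 of the 14811600 of WT-1.

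Most proteasome genes had nearly the same level in KO and WT livers. Of the 49 genes that could be tested, 1 was higher in KO (Psme1, a subunit of the PA28 activator) and 2 were lower (Psmd9, an assembly chaperone, and Psmf1, the inhibitor PI31). Over all 11142 genes tested, 5.93% were called higher and 3.62% lower, 9.55% in all. The called share of the proteasome genes, 6.12%, is thus no larger than the background. The remaining 46 did not pass. The untested gene was Psmb11, the catalytic subunit of thymus cortex, which was listed at 0 FPKM in the 3 KO libraries and at 0.0159, 0.0145 and 0 FPKM in WT.

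The log2 fold change was positive in 37 of the 49 genes, with a median of 0.07. All tested genes had a median of 0.09 and 7952 of them were positive, and 20 of the 49 lay above that median. Under median-of-ratios scaling the median was -0.04 for the proteasome genes and -0.0057 for all genes. KO lay above WT in every library for 15 genes (30.6%), against 26.8% of all tested genes. KO lay below WT in every library for 3 genes (6.12%), against 8.8% of all. The 95% interval of the fold change stayed within 1.25-fold in either direction for 37 of the 49 genes, against 39.1% of all tested genes. It stayed within 1.5-fold for 48, Psmf1 being the exception, against 80.8% of all. The width of an interval follows the SE, whose median was 0.0605 for the 49 genes and 0.0886 over all tested genes. These shares thus reflect precision as well as the size of the change.

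**Figure D1:**
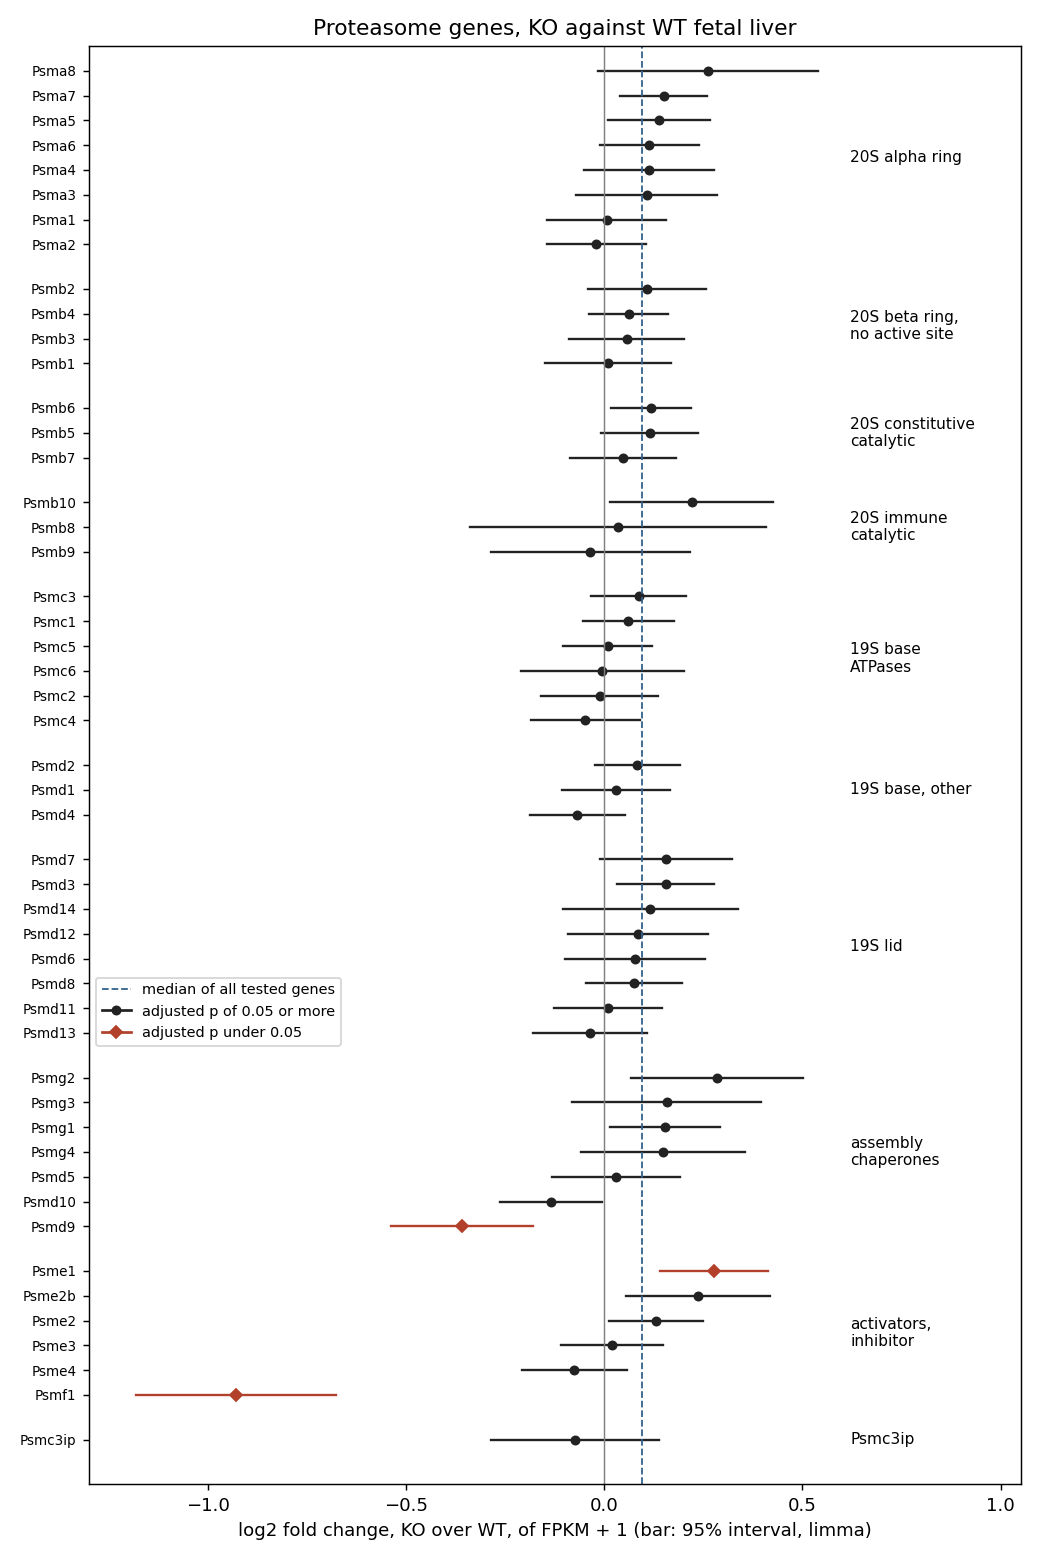
Log2 fold change of FPKM + 1, KO over WT, for the 49 tested genes by role; points are limma estimates, bars 95% intervals, red diamonds genes with adjusted p under 0.05, and the dashed line the median of all tested genes (0.09). Subunits of the core and of the 19S particle sit between -0.07 and 0.26, while Psmf1 lies far to the left at -0.93.

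The 20S core was expressed strongly in both groups. Without the immune, thymic and testis subunits it has 14 genes, with mean levels of 26.2 to 163.5 FPKM. Their summed level was 1100, 1096 and 1090 FPKM in KO, against 986.9, 1071 and 1054.4 FPKM in WT. On the deposited scale the sums did not overlap, and WT-1 was the lowest of the 6.

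The alpha ring forms the gate of the barrel. Psma7 had the smallest p of the ring, with 56.9 ± 1.22 FPKM in KO and 51.2 ± 1.299 FPKM in WT (SD, n = 3 each; log2 fold change 0.15, limma adjusted p = 0.0869). Psma5 and Psma6 also had every KO library above every WT library, at log2 fold changes of 0.14 and 0.11. Psma2 had the lowest log2 fold change of the ring, -0.02, with 45.3 ± 0.135 FPKM in KO and 46.0 ± 2.33 FPKM in WT (SD, n = 3 each). None of the 8 alpha genes passed the limma test or was called by voom, and 2 had an unadjusted p under 0.05, as had 28.7% of all tested genes.

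Psma8 encodes the alpha subunit that replaces that of Psma7 in the testis proteasome. It was low, at a mean of 1.95 FPKM where the filter asks for at least 1. Its libraries had 1.86, 2.18 and 2.61 FPKM in KO and 1.91, 1.64 and 1.48 FPKM in WT. The groups overlapped, and its 95% interval, -0.02 to 0.54, was the widest of the alpha ring. Over 538 aligned bases its transcript is 79.6% identical to that of Psma7, a far more abundant gene, and the sources used here do not state how fragments that match both were counted.

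Of the beta subunits without a proteolytic site, Psmb1 was the most abundant gene of the core, with 163.9 ± 2.76 FPKM in KO and 163.2 ± 13.1 FPKM in WT (SD, n = 3 each; log2 fold change 0.0096). Psmb4, the last subunit to join the ring, had 113.6 ± 2.28 FPKM in KO and 108.9 ± 0.456 FPKM in WT (SD, n = 3 each; 0.06). Psmb2 had 96.3 ± 0.838 FPKM in KO and 89.5 ± 6.68 FPKM in WT (SD, n = 3 each; 0.11). Psmb3 differed by 0.06, and its groups overlapped.

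None of the 3 constitutive active subunits passed the limma test or was called by voom, and 1 had an unadjusted p under 0.05. Their log2 fold changes were positive on the deposited scale, and those of Psmb5 and Psmb7 turned negative under median-of-ratios scaling. Psmb5, which cuts after hydrophobic residues, had 59.1, 60.4 and 60.1 FPKM in KO, against 55.8, 52.3 and 57.5 FPKM in WT (log2 fold change 0.11, limma adjusted p = 0.196). Psmb6, which cuts after acidic residues, had 61.9, 64.1 and 63.6 FPKM in KO, against 57.9, 57.9 and 58.7 FPKM in WT (0.12, limma adjusted p = 0.127). Neither gene's groups overlapped. Psmb7, which cuts after basic residues, had 37.8, 37.0 and 36.6 FPKM in KO, against 33.6, 36.7 and 37.5 FPKM in WT, and its groups overlapped (0.05, limma adjusted p = 0.619).

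Taking genes by name gave 17 of the 19S particle, which need not be all of its genes. They had summed levels of 1232.1, 1236.8 and 1253.1 FPKM in KO, against 1137.4, 1239.1 and 1230.7 FPKM in WT. Here WT-1 was low and the other 5 libraries lay close together. The 6 ATPases, which form the unfolding ring, had 3 positive and 3 negative log2 fold changes between -0.05 and 0.09. Psmc5, for example, had 127.3 ± 2.68 FPKM in KO and 126.6 ± 4.18 FPKM in WT (SD, n = 3 each; 0.0088). Psmc6 had the widest spread of the ring, with 103.0 ± 3.91 FPKM in KO and 103.9 ± 11.7 FPKM in WT (SD, n = 3 each; -0.0056).

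Of the base, 3 further genes were taken by name. Psmd2, a scaffold of the base, had 127.0 ± 0.680 FPKM in KO and 119.9 ± 3.77 FPKM in WT (SD, n = 3 each; log2 fold change 0.08), and Psmd1, the other scaffold, differed by 0.03. Psmd4, a receptor for ubiquitin chains, was the lowest of the 19S genes at -0.07, with 84.8 ± 3.24 FPKM in KO and 88.9 ± 2.55 FPKM in WT (SD, n = 3 each).

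In the lid, 7 of 8 log2 fold changes were positive, of which 3 lay above the median of all genes. Psmd3 and Psmd7, each a structural subunit, had the largest, 0.15 and 0.16. Psmd3 had 40.0, 41.7 and 42.2 FPKM in KO, against 35.4, 37.2 and 38.4 FPKM in WT, with no overlap (limma adjusted p = 0.107). Psmd14, the enzyme that takes ubiquitin off the substrate, had 55.6 ± 1.45 FPKM in KO and 51.5 ± 6.64 FPKM in WT (SD, n = 3 each; 0.12, limma adjusted p = 0.442). Psmd13 was the one lid gene with a negative value, -0.04.

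None of the 31 genes of core and 19S particle was called by limma, and none in any of the 15 alternative analyses, voom included. An unadjusted p under 0.05 was reached by 4 of them, against 28.7% of all tested genes. Their 95% intervals all lay within 1.5-fold and 29 of the 31 within 1.25-fold. The median log2 fold change was 0.11 for the core (with Psma8, 15 genes) and 0.06 for the 19S particle, and these values move with the scaling, as does that of all genes. Under median-of-ratios scaling they were -0.0062 for the core, -0.06 for 19S and -0.0057 for all genes. After conversion to TPM they were 0.23, 0.18 and 0.20 in the same order, and after scaling to the sum without globins 0.15, 0.10 and 0.13. In each of these scalings the 19S median was the lowest of the 3. TPM and non-globin scaling divide by FPKM sums, with and without globins. The full sum was 491620 in WT-1, of which Gm23935 held 13.5%, and 400545 to 421672 in the other libraries. These scalings multiply WT-1 by 0.8595 and 0.8673, and the other libraries by 0.9982 to 1.0549, so they mainly lower WT-1. WT-1 was the lowest WT library in 26 of the 31 genes, and without it the medians were 0.06 for the core and 0.0066 for 19S, against 0.0879 for all genes, so that the core then lay below all genes.

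**Figure D2:**
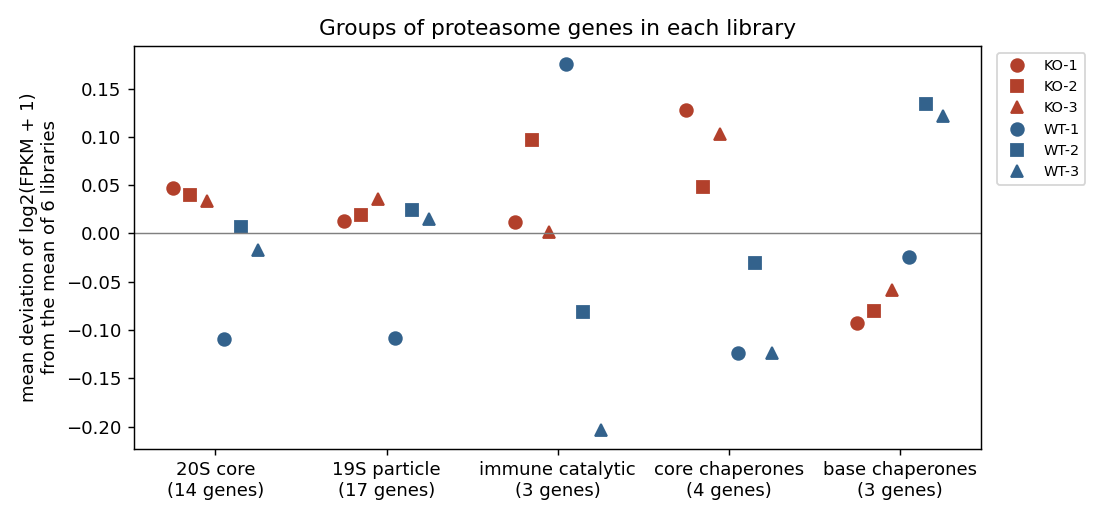
Mean deviation of log2(FPKM + 1) from the mean of all 6 libraries, for 5 groups of genes; each point is a library, KO in red on the left and WT in blue on the right. WT-1 stands low in the 20S core (-0.11) and the 19S particle (-0.11) and high in the immune subunits (0.18). KO lies above WT for the 20S core and for the core chaperones. For the base chaperones KO lies below WT, as it does for Psmd9 and Psmd10 singly, while the groups of Psmd5 overlap.

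Building a proteasome needs dedicated chaperones, and these are described by the part they serve. All 4 chaperones of the core, Psmg1 to Psmg4, had log2 fold changes above the median of all genes, with a median of 0.16 among them. None passed the limma test or was called by voom, and 2 of the 4 had an unadjusted p under 0.05, against 28.7% of all tested genes. Psmg2, which acts with Psmg1 in forming the alpha ring, had 44.8, 41.3 and 45.1 FPKM in KO, against 32.1, 40.8 and 34.8 FPKM in WT. All KO libraries lay above all WT libraries, by a narrow margin to WT-2 (log2 fold change 0.28, 95% interval 0.07 to 0.50, limma adjusted p = 0.0984). A single alternative, without WT-2, called it, and over all alternatives its adjusted p ran from 0.0315 to 0.324. Psmg1 had 26.7 ± 0.825 FPKM in KO and 23.9 ± 1.35 FPKM in WT (SD, n = 3 each; 0.15, limma adjusted p = 0.144). Psmg3 and Psmg4, which act as a second pair, differed by 0.16 and 0.15, with overlapping groups.

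Taking genes by name gave 3 chaperones of the 19S base, which need not be all of them. Of these, Psmd9 (p27) fell, its KO mean being 75.2% of the WT mean. It had 6.10, 6.44 and 6.57 FPKM in KO, against 7.63, 8.97 and 8.81 FPKM in WT, so the groups were apart. The log2 fold change was -0.36, SE 0.0757, 95% interval -0.54 to -0.18 (limma adjusted p = 0.0354). The call is fragile: it held in 7 of 15 alternatives and in 1 of 6 analyses that left out a library, the one without WT-1, with adjusted p from 0.0192 to 0.240, while the log2 fold change stayed between -0.46 and -0.25. Psmd9 (ENSMUSG00000029440; chr5:123169413-123250131, plus strand, GRCm38) shares 1849 exon bases, 25.5% of its exons, with an antisense noncoding gene, Gm26745. The sources used here do not state whether strand was used in counting, so fragments of the 2 genes may not be told apart.

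Psmd10 (gankyrin), the second base chaperone, pointed the same way and was not called. It had 31.7, 30.2 and 31.3 FPKM in KO, against 33.0, 36.1 and 33.7 FPKM in WT, without overlap (log2 fold change -0.13, limma adjusted p = 0.157). Psmd5, the third, had 18.6 ± 0.249 FPKM in KO and 18.2 ± 1.504 FPKM in WT (SD, n = 3 each; 0.03).

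The largest difference of the whole family was at Psmf1, the gene of PI31, a proline-rich protein first described as an inhibitor of the 20S core in the test tube and known in flies and mice as an adaptor for proteasome transport. Psmf1 had 5.78, 6.32 and 6.43 FPKM in KO, against 11.03, 12.4 and 14.8 FPKM in WT. Every KO library was well below every WT library, and the KO mean of 6.18 ± 0.351 FPKM was 48.5% of the WT mean of 12.7 ± 1.92 FPKM (SD, n = 3 each). Its log2 fold change came to -0.93, SE 0.106, 95% interval -1.18 to -0.68 (limma adjusted p = 0.00614), the 74th lowest of the 11142 genes. The values rest on 601 to 647 fragments per library in KO and 1052 to 1520 in WT. Psmf1 was called in all 15 alternatives, the 6 that left out a library included, with log2 fold changes from -1.04 to -0.82 and adjusted p from 0.00222 to 0.0340. The gene (ENSMUSG00000032869) lies on the minus strand at chr2:151715812-151744186 of GRCm38.

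Set against the barrel it binds, Psmf1 stood at 9.55%, 10.2% and 10.4% of the median core gene in KO, against 19.4%, 22.4% and 25.5% in WT. These shares compare FPKM within a library and so do not depend on how libraries are scaled. Lists of cell type markers moved between the same libraries. Of 8 red cell markers 5 were called lower in KO, against 3.62% of all tested genes, and each of these calls held in 4 to 13 of 15 alternatives and in 0 to 6 of the 6 that left out a library. The 8 had summed levels of 70353 to 78023 FPKM in KO and 89447 to 102240 FPKM in WT. Of 10 megakaryocyte and platelet markers 7 were called higher, against 5.93% of all tested genes, each in 7 to 11 of 15 alternatives and in 1 to 3 of the 6 that left out a library. The 10 had sums of 426.8 to 769.7 FPKM in KO and 202.3 to 400.2 FPKM in WT; Itga2b, the platelet integrin, had 58.8 to 106.6 FPKM in KO and 20.5 to 37.1 FPKM in WT. Neutrophil markers summed to 1604 to 2163 FPKM in KO and 1309 to 1848 FPKM in WT, and endothelial markers to 15.9 to 23.6 FPKM in KO and 9.77 to 25.4 FPKM in WT, so the groups overlapped for both. The part of these cell types in the level of Psmf1 was not tested. In bulk RNA, fewer cells of a type and less RNA per cell cannot be told apart.

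**Figure D3:**
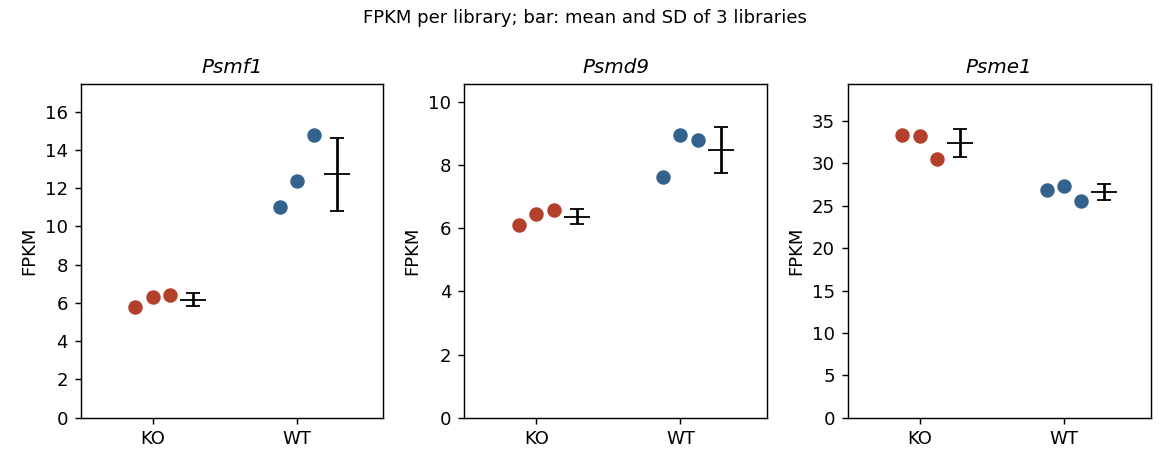
FPKM of the 3 called genes in each KO library (red) and WT library (blue); points are libraries and bars the mean and SD of 3 libraries, on axes that start at 0. KO and WT do not overlap for any of the 3, and the gap is widest for Psmf1, at 5.78 to 6.43 FPKM in KO and 11.03 to 14.8 FPKM in WT.

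GATA1 binds letters such as AGATAA and TGATAA, and the promoters of these genes were searched for these alone. RefSeq (GRCm38.p6) gave a window of 300 bases, 250 before and 50 after the start, for 42 of the 50 genes. AGATAA or TGATAA on either strand occurred in 5 of the 42 (11.9%), against 20.96% of 27025 genes: Psmc6, Psmd14, Psmd8, Psmd9 and Psmf1. Of the 5, Psmf1 and Psmd9 were called, and Psmc6, Psmd14 and Psmd8 were not, at log2 fold changes of -0.0056, 0.12 and 0.07. Whether the motif bears on the levels was not tested. Their matches are shown because they belong to the called genes, with the motif in capitals and 27 bases in all.
Psmf1: gctttgagaAGATAAgccctagcctgc
Psmd9: tgggcctatTTATCTctaccgggtcat
The Psmf1 match is at chr2:151741394-151741420 on the minus strand, its motif starting at position -101 from the RefSeq start. The Psmd9 match is at chr5:123228104-123228130, printed from the plus strand, where the motif reads in reverse as TTATCT from position -77. Both RefSeq starts lie inside the longer gene spans of the deposited table. A match of letters is a description and not a binding site.

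Of the activators, 1 was called. Psme1 encodes the alpha subunit of PA28, a ring that opens the core for peptides and is induced by interferon gamma. It rose in KO, where its mean was 121.9% of the WT mean, with 33.4, 33.3 and 30.5 FPKM in KO, against 26.8, 27.4 and 25.5 FPKM in WT, and no overlap. The log2 fold change was 0.28, SE 0.0572, 95% interval 0.14 to 0.41 (limma adjusted p = 0.0338). It was called in 6 of 15 alternatives and in 1 of 6 that left out a library, the one without WT-2, with adjusted p from 0.0254 to 0.172 and log2 fold changes from 0.16 to 0.40. Psme1 (ENSMUSG00000022216) lies at chr14:55578123-55581529 on the plus strand, 5911 bases from Psme2.

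Psme2, which encodes the beta subunit of the same ring, had 33.7, 34.4 and 32.1 FPKM in KO, against 31.2, 30.1 and 29.9 FPKM in WT. The groups were apart, and the gene did not pass (log2 fold change 0.13, 95% interval 0.01 to 0.25, limma adjusted p = 0.145). In FPKM the 2 subunits stood nearly level in KO, at means of 32.4 and 33.4, and in WT Psme1 was below Psme2, at 26.6 and 30.4. Psme2b, a gene of 1 exon and 837 bases, is 99.4% identical to Psme2 over 794 bases, so its 31.3 ± 1.54 FPKM in KO and 26.5 ± 2.38 FPKM in WT (SD, n = 3 each; 0.24, limma adjusted p = 0.1002) may share fragments with Psme2.

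Psme3, which encodes PA28 gamma of the nucleus, was the most abundant gene of all 50, with 250.7 ± 8.12 FPKM in KO and 247.4 ± 10.9 FPKM in WT (SD, n = 3 each; log2 fold change 0.02, limma adjusted p = 0.837). Psme4, which encodes PA200, had 28.6 ± 1.47 FPKM in KO and 30.2 ± 0.788 FPKM in WT (SD, n = 3 each; -0.08, limma adjusted p = 0.400). The 95% intervals of both genes lay within 1.25-fold.

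The immune active subunits were scarce apart from Psmb10. Psmb8, which replaces the subunit of Psmb5, had 1.83, 1.93 and 1.94 FPKM in KO, against 2.61, 1.62 and 1.40 FPKM in WT. The KO libraries lay within the range of WT (log2 fold change 0.03, 95% interval -0.34 to 0.41, limma adjusted p = 0.902). Psmb9, which replaces that of Psmb6, had 1.67, 1.82 and 1.71 FPKM in KO, against 2.10, 1.85 and 1.49 FPKM in WT, again within the WT range (-0.03, 95% interval -0.29 to 0.22, limma adjusted p = 0.847). In both genes WT-1 was the highest and WT-3 the lowest of the 6 libraries. They lie 9956 bases apart on chromosome 17 with Tap1, a peptide transporter, between them, and Psmb9 shares 212 exon bases with Tap1 on the other strand. Psmb8 rests on 75 to 131 fragments per library and Psmb9 on 87 to 114, and their intervals are among the widest of the family.

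Psmb10, which replaces the subunit of Psmb7, was far more abundant, with 19.8, 21.7 and 18.3 FPKM in KO, against 18.8, 16.3 and 15.9 FPKM in WT. The groups overlapped through WT-1 (log2 fold change 0.22, 95% interval 0.01 to 0.43, limma adjusted p = 0.151). Relative to Psmb7, its level was 52.4%, 58.7% and 50.2% in KO, against 55.8%, 44.6% and 42.2% in WT. Psmb8 stood at 3.10%, 3.20% and 3.23% of Psmb5 in KO, against 4.68%, 3.10% and 2.43% in WT, and Psmb9 at 2.70%, 2.85% and 2.69% of Psmb6 in KO, against 3.63%, 3.20% and 2.54% in WT. Merged exon lengths enter these shares: Psmb8 has 3381 bases against 899 for Psmb5, Psmb9 has 3660 against 1872 for Psmb6, and Psmb10 has 1705 against 3421 for Psmb7. The immune gene is thus the longer one in the pairs of Psmb8 and Psmb9 and the shorter one in that of Psmb10. How far merged lengths exceed those of the transcripts expressed, and so shift the shares, was not tested.

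Over the 3 pairs together, immune minus constitutive levels on the log2(FPKM + 1) scale were -3.29, -3.22 and -3.30 in KO, against -3.01, -3.28 and -3.46 in WT. The KO libraries fell inside the WT range, and KO minus WT was -0.02, against a pooled SD of 0.16 between libraries. The immune genes held 12.8%, 13.6% and 12.1% of the summed FPKM of all 6 active subunits in KO, against 13.7%, 11.9% and 10.9% in WT. An exact permutation test of 3 against 3 libraries cannot go below p = 0.1, so none is given.

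**Figure D4:**
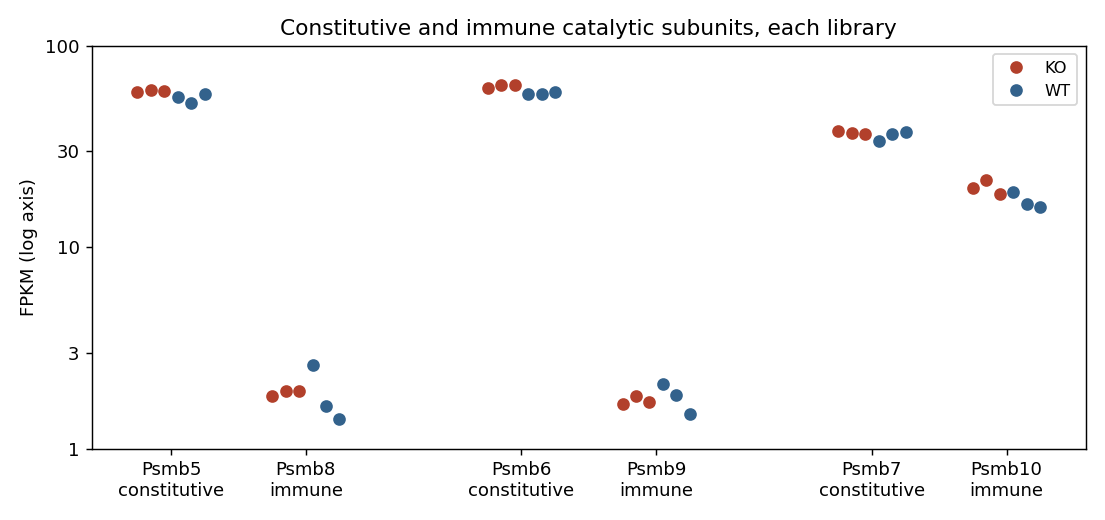
FPKM on a log axis of the constitutive active subunits and the immune subunits that replace them, each point a library, KO in red to the left of WT in blue. Psmb8 and Psmb9 lie between 1.40 and 2.61 FPKM in all libraries, far below Psmb5 and Psmb6, while Psmb10 reaches 42.2% to 58.7% of Psmb7.

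Genes of antigen presentation and the interferon response are commonly expressed with the immune subunits. They gave 0 calls among 11 tested of 12, against 9.55% of all tested genes. With limma 1 had an unadjusted p under 0.05, and voom called 1, H2-D1. H2-D1, a class I molecule, had 46.0, 50.8 and 45.3 FPKM in KO, against 42.2, 36.4 and 34.9 FPKM in WT, without overlap (log2 fold change 0.32, limma adjusted p = 0.0609). The gene was called in 5 alternatives, and its adjusted p ran from 0.0273 to 0.239 over all of them. Lymphoid markers summed to 9.97 to 11.01 FPKM in KO and 8.32 to 11.2 FPKM in WT, and macrophage markers to 90.3 to 159.0 FPKM in KO and 93.9 to 180.6 FPKM in WT, with Adgre1, the macrophage antigen F4/80, at 7.15 to 11.4 FPKM in KO and 7.07 to 12.2 FPKM in WT.

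The factors that control proteasome genes gave 1 call among 11 tested of 12 (9.09%), near the 9.55% of all tested genes. Nfe2l1 encodes NRF1, which is made at the endoplasmic reticulum, is normally destroyed by the proteasome and activates proteasome genes when the proteasome is impaired. It rose in KO, with 23.7, 23.2 and 23.9 FPKM in KO, against 18.8, 18.996 and 17.6 FPKM in WT, and no overlap (log2 fold change 0.34, SE 0.0523, limma adjusted p = 0.0143). It was called in 10 of 15 alternatives and lost without KO-1, KO-2 or KO-3 and under median-of-ratios and non-globin scaling, with adjusted p from 0.00931 to 0.104. The median log2 fold change of the list was -0.08, against 0.09 for all genes, and 4 of the 11 (36.4%) had all KO libraries below all WT libraries, against 8.8% of all tested genes. Among them Nfyb, a subunit of the factor that binds the CCAAT box, had 11.7, 11.2 and 12.3 FPKM in KO, against 13.4, 14.1 and 14.03 FPKM in WT (-0.22, limma adjusted p = 0.0615). Nfyb was called lower in 3 of 15 alternatives, voom among them, with adjusted p from 0.0464 to 0.508.

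NRF1 and its relatives bind antioxidant response elements, whose core is searched here as TGACNNNGC on both strands. It occurred in 6 of the 42 promoters (14.3%), against 13.99% of all genes: Psmb5, Psmb6, Psmc6, Psmd12, Psmd9 and Psme4. The matches of a pair of active subunits and of the called chaperone are shown with the core in capitals.
Psmb5: gtgaagttgTGACGTCGCggcgttgcc
Psmb6: taaagagagTGACGGAGCgctttacga
Psmd9: tctagccggTGACCCCGCccacttcca
They lie at chr14:54618025-54618051 on the minus strand, chr11:70525339-70525365 on the plus strand and chr5:123228150-123228176 on the plus strand of GRCm38.p6, with the core starting at positions -47, -9 and -31. Of the 6 genes, Psmd9 was lower in KO and the other 5 were not called, with log2 fold changes from -0.08 for Psme4 to 0.12 for Psmb6. The CCAAT box, CCAAT on either strand, occurred in 15 of the 42 promoters (35.7%), against 41.1% of all, and in none of the 3 called genes.

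Partners of the proteasome outside the family, such as ubiquitin shuttles, deubiquitinating enzymes and assembly factors, gave 2 genes higher and 1 lower among 15. The called share was 20%, against 9.55% of all tested genes. The 2 higher ones encode ubiquilins, shuttles that carry ubiquitinated proteins to the 19S particle. Ubqln2 had 12.01, 12.5 and 13.1 FPKM in KO, against 9.12, 8.34 and 7.86 FPKM in WT (log2 fold change 0.52, limma adjusted p = 0.00948). The call held in 14 of 15 alternatives and was lost without KO-2, with limma adjusted p from 0.00577 to 0.0561. Ubqln4 had 30.9, 31.0 and 29.9 FPKM in KO, against 24.4, 26.1 and 24.6 FPKM in WT (0.28, limma adjusted p = 0.0221). It was called in 8 of 15 alternatives, with limma adjusted p from 0.0170 to 0.184, and lost under the 3 other scalings and without KO-1, KO-2, KO-3 or WT-3. Neither gene's groups overlapped.

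**Figure D5:**
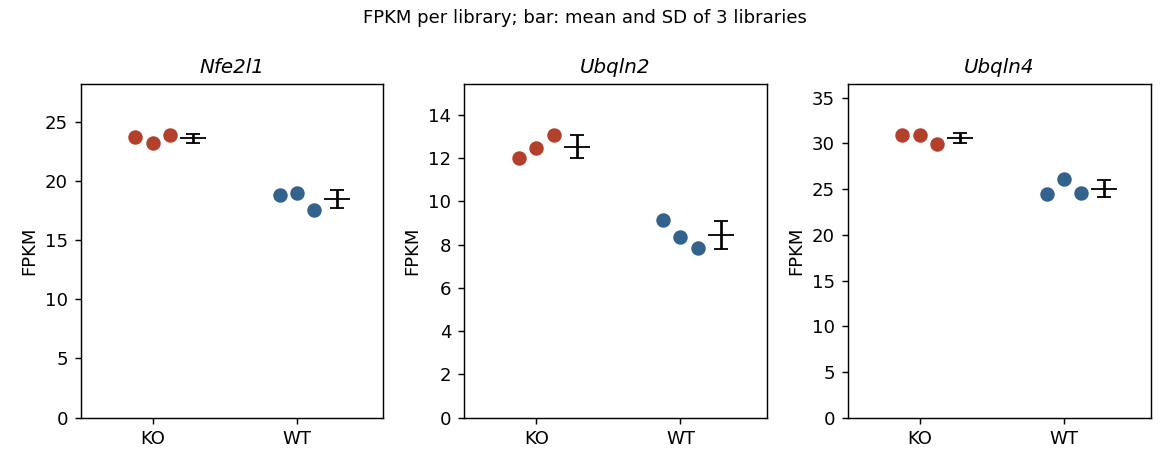
FPKM of the called factor Nfe2l1 and the called shuttles Ubqln2 and Ubqln4 in each KO library (red) and WT library (blue); points are libraries, bars the mean and SD of 3 libraries, and axes start at 0. Every KO library lies above every WT library in each of the 3 panels, for Nfe2l1 at 23.2 to 23.9 FPKM in KO and 17.6 to 18.996 FPKM in WT.

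Genes that supply ubiquitin or pull its substrates out of complexes gave 0 calls among 9 with limma, against 9.55% of all tested genes. Voom called 0, and 3 had an unadjusted limma p under 0.05, against 28.7% of all tested genes. Vcp, the ATPase that extracts substrates, had 107.0 ± 3.09 FPKM in KO and 95.5 ± 0.763 FPKM in WT (SD, n = 3 each; log2 fold change 0.16, limma adjusted p = 0.0662). Rps27a, which encodes ubiquitin fused to a ribosomal protein, had 344.3 ± 6.02 FPKM in KO and 296.9 ± 20.1 FPKM in WT (SD, n = 3 each; 0.22, limma adjusted p = 0.0745). Ubb, a polyubiquitin gene and the most abundant of the list, pointed the other way, with 721.7, 747.5 and 757.2 FPKM in KO, against 891.3, 786.2 and 809.4 FPKM in WT, without overlap (-0.16, limma adjusted p = 0.163). The median of the list, 0.09, equals that of all genes.

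Psmc3ip, taken in by its name, had 9.74, 9.65 and 10.4 FPKM in KO, against 9.79, 9.80 and 12.1 FPKM in WT. The groups overlapped (log2 fold change -0.07, limma adjusted p = 0.6203).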

How the data were processed

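Total RNA of fetal liver, 3 KO and 3 WT libraries, was extracted with TRIzol and read from both ends (150 bases each), per the labels' protocols. FPKM values were computed by the authors and deposited as 1 table. The sources used here name no aligner, counting program or build and do not state the use of strand. Of 26022 lines, 7 with spilled text and 1 empty line were left out, and 24 gene names turned into dates were restored. Of 26014 identifiers, 25935 are in GENCODE M21 and 23608 rows have its positions, so coordinates are GRCm38.

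FPKM steps, with merged exon lengths, gave whole fragments within 0.02 for 93.9% to 94.3% of low values and hence the depth of each library.

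Differences were tested with limma 3.58.1 under R 4.3.3 (lmFit, eBayes with a trend, two-sided) on log2(FPKM + 1), for mean FPKM of at least 1, with Benjamini-Hochberg adjustment over 11142 genes and a threshold of 0.05. It called 661 genes higher and 403 lower; the split was 219 and 450 under median-of-ratios, 777 and 134 under TPM and 330 and 135 under non-globin scaling. Scripts were tested on simulated data, drawn with the same spread for all genes. There limma called 46 of 48 genes changed 2-fold, 22 of 49 changed 1.5-fold and 1 of 49 changed 1.25-fold. Of its 128 calls, 10 were false. Small changes can thus go uncalled. The 15 alternatives changed the pseudocount (0.1), the filter (none, or a mean of at least 5), the scaling (those 3), the genes (protein-coding alone) or the libraries (each left out), added a replicate block, or used limma's voom on recovered fragments, which was chosen after seeing the data.

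The labels do not say whether replicate numbers pair the samples, which were treated as unpaired in the main analysis, and they give no batch. Members and lists were chosen with earlier results of these data known. Named were Gata1, all called members and the active and activator genes, the called genes of each other pathway list or the 2 with the smallest p, and 4 markers; other members, Nfyb, Ubb, Gm23935 and the pseudogenes were named after their values were seen. A few genes taken by this rule are not reported here. Sequence identity came from BLAST 2.17.0. Tables and figures used Python 3.11.15, pandas 2.3.3, numpy 2.4.6, and matplotlib version 3.10.9.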

Additional observations from a re-analysis of the deposited data

Results flagged for a closer look

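Psmb6-ps, a processed pseudogene of Psmb6 outside the protein-coding genes described above, was present at a low level in KO and nearly absent in WT. It had 0.608, 0.981 and 0.718 FPKM in KO (mean 0.769), against 0, 0.0865 and 0 FPKM in WT. This rests on 7 to 11 fragments per library in KO and 0 to 1 in WT, and all KO libraries lay above all WT libraries. It was too low for the limma test. Its position is chromosome X, 7950156 to 7950868, minus strand (GRCm38), 8391 bases beyond the 3′ end of Gata1 on the same strand. Hdac6, a deacetylase gene 2266 bases further on, had 5.95 ± 0.304 FPKM in KO and 5.72 ± 0.281 FPKM in WT (SD, n = 3 each) and did not pass. The pseudogene is 88.9% identical to Psmb6 over 718 aligned bases. A second Psmb6 pseudogene, Psmb6-ps2 on chromosome 1, 92.1% identical over 718 bases, was listed at 0, 0.0902 and 0 FPKM in KO and at 0 in the 3 WT libraries.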

How the results depend on the processing

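Psmf1 kept its direction and call in all 15 alternatives. The count of members higher in KO, 1 in the main analysis, was 0 with no filter and under TPM, non-globin and median-of-ratios scaling, and 0 to 2 with a library left out. The count lower, 2 in the main analysis, was 1 with no filter and under TPM and non-globin scaling, and 1 to 2 with a library left out. The median log2 fold change of the core was -0.0062 under median-of-ratios, 0.23 under TPM and 0.15 under non-globin scaling, and 0.0635 to 0.114 with a library left out, lowest without WT-1. That of 19S was -0.0558 under median-of-ratios and 0.184 under TPM scaling, and 0.00663 to 0.0663 with a library left out, again lowest without WT-1. Of 312 alternative values of 21 single genes, 11 changed sign, none of a called gene: under median-of-ratios Psmb5 (-0.0011), Psmb7 (-0.0686), Psmb8 (-0.0416) and Psme3 (-0.0983); under TPM scaling Psmb9 (0.0461) and Psme4 (0.0439); and with a library left out Psmb7 (-0.00027 to 0.0776), Psmb8 (-0.086 to 0.21), Psmb9 (-0.12 to 0.0377) and Psme3 (-0.0057 to 0.0544). The cause was not tested. TPM and non-globin scaling multiply WT-1 by 0.8595 and 0.8673, against 0.9982 to 1.0549 for the other libraries. The replicate block changed no member's call (1 higher and 2 lower); same-numbered deviations correlated at -0.1, 0.01 and 0.26. Over all genes it gave 1072 calls, against 1064 in the main analysis, 513 with no filter and 173 without KO-2, the lowest. The immune minus constitutive value, KO minus WT, was -0.0195 in the main analysis and changed sign to 0.0088 under median-of-ratios scaling. With a library left out it ran from -0.125 without WT-3 to 0.10 without WT-1. It was not computed at a mean of at least 5, where Psmb8 and Psmb9 drop out, or with voom.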
